A study of Mus musculus with 6 samples.

Results

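Late cells, taken as isolated colonies on day 22 of CRISPR activation, were compared with early cells taken on day 7, with 2 libraries on each side. Of 49315 genes in the count table, 16688 passed the expression filter. A gene was a member of the comparison when both late libraries lay on the same side of both early libraries in CPM, the counts of a gene scaled to library size. Both late libraries lay above both early libraries for 2686 genes, or 16.1% of the genes tested. They lay below for 2938 genes, or 17.6%, and the libraries overlapped for the remaining 11064.

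The study sequenced polyadenylated RNA from wild-type mouse tail-tip skin cells in 6 libraries, 2 in each of 3 groups. The control fibroblasts received negative lentiviral vectors and stand for day 0. The early cells received CRISPR activation vectors of the SAM type and stand for day 7, and the late cells received those vectors and were picked from colonies on day 22. In CRISPR activation an inactive Cas9 brings transcriptional activators to the promoter of an endogenous gene. The labels call the late cells CRISPR-induced cardiac progenitors, and they describe early replicate 1 as early reprogrammed and early replicate 2 as partially reprogrammed. Which genes were activated, and whether a late library came from a single colony or a pool, is not given in the sources used here. Whether the replicates were separate cultures or animals is not stated either, so a p-value here covers only the spread among the sequenced libraries. The columns of the count table were assigned to early and late cells by their names, which do not spell out the early cells' titles. If that reading were wrong, early and late would swap and every direction below would turn.

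Heart progenitors are the cells of the early embryo from which heart muscle, smooth muscle and vessel lining arise. Their gene programme is driven by a small set of factors that bind DNA together, among them Gata4, Nkx2-5, Tbx5, Mef2c, Hand2 and Isl1. Muscle cells that mature from them assemble sarcomeres, the contractile units of myosin, actin, troponin and titin. Imprinted genes are read from only the maternal or the paternal copy, are controlled by DNA methylation of CG-rich regions, and are active mainly in the embryo and placenta. Interferon-stimulated genes encode antiviral proteins and carry in their promoters the interferon-stimulated response element, which factors activated by interferon bind.

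Promoter windows of 4 imprinted genes that were higher in both late libraries are shown for their CG dinucleotides, which are in capitals. The windows run 5′ to 3′ on the gene's strand, from 250 bases before to 50 after the annotated start, and come from RefSeq on GRCm38.p6. Where a gene has several windows, the window with the most CG dinucleotides is shown.
Plagl1, chr10:13090582-13090881, plus strand: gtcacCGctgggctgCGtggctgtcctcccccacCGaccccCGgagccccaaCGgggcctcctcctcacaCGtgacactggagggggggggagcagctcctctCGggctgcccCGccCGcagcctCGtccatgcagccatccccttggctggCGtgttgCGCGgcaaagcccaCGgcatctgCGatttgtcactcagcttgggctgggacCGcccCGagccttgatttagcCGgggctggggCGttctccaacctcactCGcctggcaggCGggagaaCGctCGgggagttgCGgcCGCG
Nnat, chr2:157559828-157560127, plus strand: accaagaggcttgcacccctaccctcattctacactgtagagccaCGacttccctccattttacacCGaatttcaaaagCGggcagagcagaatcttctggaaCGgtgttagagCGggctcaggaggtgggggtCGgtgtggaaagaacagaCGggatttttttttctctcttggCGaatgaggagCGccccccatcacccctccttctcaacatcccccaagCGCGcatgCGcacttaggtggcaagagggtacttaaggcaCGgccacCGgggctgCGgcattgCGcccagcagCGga
Mest, chr6:30737800-30738099, plus strand: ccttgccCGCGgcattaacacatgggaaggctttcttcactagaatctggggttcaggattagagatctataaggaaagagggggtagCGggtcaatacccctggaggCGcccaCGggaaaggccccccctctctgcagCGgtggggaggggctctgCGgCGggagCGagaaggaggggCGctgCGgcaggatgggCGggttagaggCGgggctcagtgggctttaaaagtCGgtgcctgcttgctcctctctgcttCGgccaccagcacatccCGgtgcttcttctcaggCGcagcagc
Igf2, chr7:142658755-142659054, minus strand: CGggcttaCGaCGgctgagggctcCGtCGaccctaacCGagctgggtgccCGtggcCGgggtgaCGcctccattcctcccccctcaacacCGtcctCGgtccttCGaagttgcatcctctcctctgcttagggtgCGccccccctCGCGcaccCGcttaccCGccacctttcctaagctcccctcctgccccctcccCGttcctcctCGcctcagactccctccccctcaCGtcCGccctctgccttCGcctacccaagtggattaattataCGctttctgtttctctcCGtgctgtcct
The Plagl1 window held 26 CG dinucleotides, the Nnat window 17, the Mest window 17 and the Igf2 window 24. The median of the 11579 tested genes with a window was 21, so these windows lay on both sides of it.

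Promoter windows of 3 antiviral genes that were lower in both late libraries are shown for the core of the interferon-stimulated response element. Capitals mark matches to GAAA, any 2 bases and GAAA again, on either strand, and in Oas1a 2 matches overlap.
Ifih1, chr2:62646206-62646505, minus strand: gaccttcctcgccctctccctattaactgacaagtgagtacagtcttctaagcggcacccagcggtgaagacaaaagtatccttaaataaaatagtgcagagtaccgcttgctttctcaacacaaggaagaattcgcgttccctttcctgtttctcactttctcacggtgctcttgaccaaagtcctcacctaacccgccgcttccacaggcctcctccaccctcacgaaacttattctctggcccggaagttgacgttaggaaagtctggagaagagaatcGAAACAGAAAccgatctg
Oas3, chr5:120777610-120777909, minus strand: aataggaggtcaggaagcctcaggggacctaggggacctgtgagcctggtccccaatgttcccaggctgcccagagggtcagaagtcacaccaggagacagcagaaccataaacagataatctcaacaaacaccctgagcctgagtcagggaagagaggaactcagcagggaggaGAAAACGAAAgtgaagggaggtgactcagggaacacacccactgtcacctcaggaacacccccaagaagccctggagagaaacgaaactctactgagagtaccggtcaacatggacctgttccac
Oas1a, chr5:120907476-120907775, minus strand: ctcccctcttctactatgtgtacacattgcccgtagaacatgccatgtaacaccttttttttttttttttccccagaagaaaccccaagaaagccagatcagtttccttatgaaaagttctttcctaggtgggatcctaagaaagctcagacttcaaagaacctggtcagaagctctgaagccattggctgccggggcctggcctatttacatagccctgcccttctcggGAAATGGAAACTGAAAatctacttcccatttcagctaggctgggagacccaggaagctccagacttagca
Of the 26 interferon-stimulated genes that were lower in both late libraries, 18 had a RefSeq window, and 10 of those, or 55.6%, held a match. Among all tested interferon-stimulated genes with a window, 15 of 26, or 57.7%, did, so the lower members held matches about as often as the list they come from. Among all tested genes with a window, 427, or 3.69%, did. A match is a description of the letters and not evidence of binding.

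Total counts ranged from 20172874 to 40122999 per library, and 3 counts, taken as the floor, corresponded to 0.0843 to 0.142 CPM. Late replicate 2 stood apart from the other 5 libraries. Mitochondrial transcripts made up 10.3% of its counts against 1.49% to 2.16% in the others. Log2 CPM of the late libraries correlated across genes at r = 0.883, below the 0.939 of the early libraries and the 0.945 of early replicate 1 with late replicate 1, and genes are not independent replicates. More than 4-fold differences separated the late libraries for 1958 genes and the early libraries for 1316. Xist, the RNA that silences an X chromosome, was at 61.2 and 0.337 CPM in the late libraries, at 0.178 and 0.142 CPM in the early libraries, and at 54.6 and 0.118 CPM in the fibroblast libraries. Because of these differences, the values of both late libraries are given separately throughout.

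No gene passed an adjusted p of 0.05 in edgeR's quasi-likelihood test. The smallest adjusted p was 0.213, for Rps4l, an annotated transcribed pseudogene of a ribosomal protein gene, which was at 0.0891 and 0.142 CPM in the early libraries, 34.2 and 23.9 CPM in the late ones and 17.5 and 12.2 CPM in the fibroblasts. An unadjusted p under 0.05 was found for 1709 genes, or 10.2%, of which 1239 genes (7.42%) were higher and 470 (2.82%) lower in the late cells. DESeq2 on the same genes called 930, of which 788 (4.72%) were higher and 142 (0.851%) lower. Among those 930, 731 had both late libraries above both early libraries, 131 had both below, and 68 had libraries that overlapped. Without a filter on low counts edgeR called 276 genes, and without late replicate 1 it called 401. The common biological coefficient of variation was 48.6%. The gene differences below are therefore given by library, with higher or lower meaning that the late and early libraries did not overlap. Counts of list members stand against 16.1% of all tested genes higher and 17.6% lower. Counts given without a library tend to rise, since fewer libraries must then be cleared. A list count that does not fall is therefore no test of its stability.

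The higher genes were further apart than the lower ones. The gap between the nearest late and early library, in log2 CPM with a prior count of 2, had a median of 0.49 among the higher genes and -0.17 among the lower genes. It reached at least 1 for 873 higher genes (5.23% of those tested) and 132 lower genes (0.791%), and at least 3 for 213 higher genes (1.28%) and 7 lower genes (0.0419%). Just inside the rule, Fbxo45 had 27.9 and 24.3 CPM in the early and 27.9 and 30.6 CPM in the late libraries. Just outside, Vwa5a had 77.8 and 147 CPM in the early and 77.8 and 56.8 CPM in the late libraries. Of the 2686 higher genes, 1811 had their larger value in late replicate 2, and of the 2938 lower genes, 2220 had their smaller value there. Across all tested genes 46.4% were higher in late replicate 2 than in late replicate 1.

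**Figure D1:**
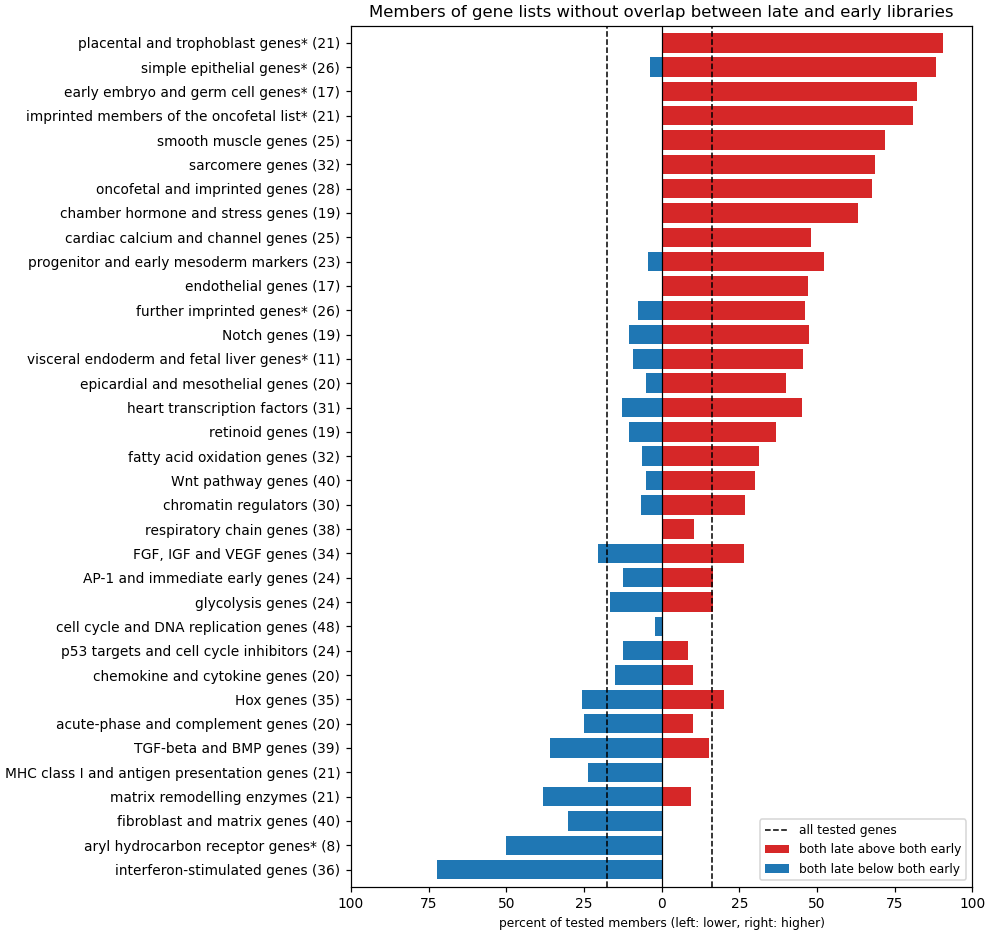
Share of each gene list's tested members with both late libraries above (right) or below (left) both early libraries, in percent, with the number tested in brackets and lists chosen after the values were seen marked by an asterisk. The dashed lines are the shares among all tested genes (16.1% and 17.6%). Interferon-stimulated genes had 26 of 36 members below, and sarcomere genes had 22 of 32 above.

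The widest upward gaps among well-expressed genes were mostly those of imprinted genes. By a rule that took the 12 largest gaps in each direction at a mean log2 CPM of at least 3, the higher genes were H19, Igf2, Slc38a4, Peg10, Mest, Nnat, Krt18, Peg3, Itm2a, Fbn2, Mcam and Plagl1, of which 8 are imprinted. H19, an imprinted long noncoding RNA of the Igf2 domain (chr7:142575529-142578143), was at 1.56 and 7.15 CPM in the early libraries and 2394 and 751 CPM in the late ones. Igf2, the fetal growth factor beside it (chr7:142650766-142666816), was at 3.52 and 3.22 CPM and then at 425 and 200 CPM. On the log2 scale both late libraries exceeded both early ones by more than the spread within either pair. The log2 differences were 8.497 (SE 1.65, edgeR adjusted p = 0.359) for H19 and 6.53 (SE 0.68, edgeR adjusted p = 0.254) for Igf2, and DESeq2 gave adjusted p-values of 6.5e-11 and 3.96e-22.

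Other imprinted genes gave the same order of libraries. Peg10, a gene derived from a retrotransposon and needed in the placenta, was at 6.15 and 3.60 CPM in the early and 699 and 202 CPM in the late libraries. Peg3, a zinc finger protein, went from 11.3 and 4.50 CPM to 636 and 211 CPM. Plagl1, a zinc finger factor, was at 13.6 and 8.14 CPM and then 348 and 110 CPM, and its promoter window above was among the more CG-rich of those shown. Mest, an enzyme of the hydrolase fold, was at 0.713 and 1.85 CPM in the early and 148 and 50.7 CPM in the late libraries. Nnat, a small membrane protein, was at 1.02 and 1.23 CPM and then 100.5 and 32.5 CPM. Late replicate 1 was the higher of the late libraries for each of these genes. Slc38a4, an amino acid transporter imprinted in mice, was at 1.43 and 0.805 CPM and then 162 and 58.6 CPM. Cdkn1c, a cell cycle inhibitor, was at 0.624 and 0.331 CPM in the early and 93.6 and 43.7 CPM in the late libraries.

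The whole list of oncofetal and imprinted genes had 19 of 28 tested members higher and 0 lower in the late libraries. Its median log2 difference was 2.47, against -0.03 for all tested genes, and DESeq2 called 12 members higher and 0 lower. Its 21 imprinted members, split off after their values were seen, had 17 higher and 0 lower. Their summed level was 877 and 1135 CPM in the early libraries and 6085 and 2738 CPM in the late libraries. The exceptions were Igf2r, Kcnq1ot1, Ndn and Sgce, whose late and early libraries overlapped. Igf2r, the receptor that clears Igf2, was at 236 and 369 CPM in the early and 163 and 254 CPM in the late libraries. Without late replicate 2 the 21 imprinted members gave 17 higher and 1 lower. A further 26 imprinted genes, chosen after the values were seen, had 12 higher and 2 lower. Zdbf2, the member of that further list with the widest gap, was at 0.0445 and 0.0473 CPM in the early and 21.6 and 7.69 CPM in the late libraries. Trappc9 on the same list overlapped, at 44.5 and 59.9 CPM and then 49.98 and 49.3 CPM.

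**Figure D2:**
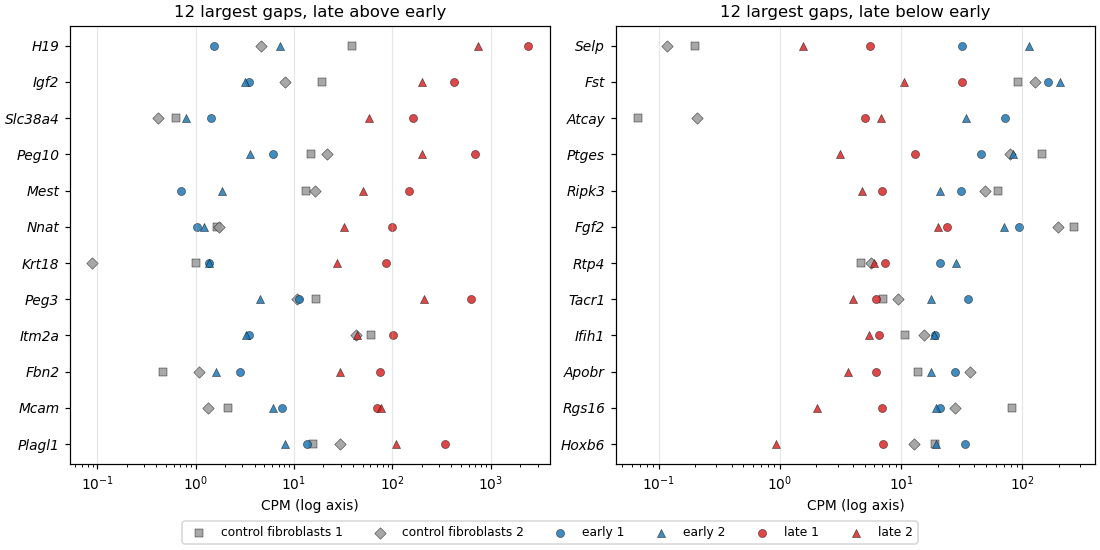
CPM on a log axis in each of the 6 libraries for the 12 genes with the widest gap above (left) and the 12 with the widest gap below (right) the early libraries. On the left the late points lie to the right of the early ones, with late replicate 1 the higher of the pair except for Mcam.

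Genes of the placenta, the early embryo and simple epithelia were mostly higher in both late libraries. These 3 lists were chosen after their values were seen and are given as descriptions. Placental and trophoblast genes had 19 of 21 tested members higher and 0 lower, with DESeq2 calling 15. A further 6 listed genes were not tested. Rhox6, Elf3 and Prl2a1 had 0 counts in all early and fibroblast libraries. They passed the expression filter through the late libraries and could not have been lower. The list's summed level was 25.5 and 8.99 CPM in the early libraries, 1234 and 376 CPM in the late ones, and 22.97 and 32.03 CPM in the fibroblasts. Rhox6, a homeobox gene on the X chromosome, had 0 counts in both early libraries and 20.6 and 5.56 CPM in the late ones, at least 169-fold higher over the group. Rhox9, its neighbour of the same family, was at 19.8 and 6.01 CPM, at least 168-fold higher. Nrk, a kinase of the placental spongiotrophoblast, was at 0.134 and 0.237 CPM and then 96.6 and 29.2 CPM. Elf3, an epithelial ETS factor, had 0 early counts and 9.50 and 3.23 CPM in the late libraries, at least 83.6-fold higher. Eomes, which marks trophoblast stem cells, was at 0.445 and 0.331 CPM in the early and 1.04 and 0.169 CPM in the late libraries and overlapped. Cdx2, another trophoblast factor, also overlapped, at 14.03 and 0.189 CPM and then 13.96 and 13.03 CPM.

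Early embryo and germ cell genes had 14 of 17 tested members higher and 0 lower, with DESeq2 calling 11. A further 9 listed genes were not tested. Pou5f1, Tex19.1 and Trap1a had 0 counts in all early and fibroblast libraries. They too passed the expression filter through the late libraries and could not have been lower. Pou5f1, a pluripotency factor, had 0 counts in both early libraries and 75 and 35 counts in the late ones, at least 26.8-fold higher. Sall4, a zinc finger factor of stem cells, had 0 early counts and was at 7.003 and 2.70 CPM in the late libraries, at least 64.3-fold higher. Lin28a, which binds RNA and blocks let-7 processing, had 2 early counts and 427 late ones, a ratio of 156 with an exact interval of 43.0 to 1290 that covers counting error only. The pluripotency gene Nanog was near the floor throughout, with 3 and 2 counts in the early and 5 and 6 counts in the late libraries. Sox2 overlapped, at 2.58 and 2.51 CPM and then 9.67 and 1.29 CPM, with 72.35 and 25.9 CPM in the fibroblasts. Prdm1 and Ddx4 were also above both late libraries in the fibroblasts, while Pou5f1, Sall4 and Lin28a were below the floor there. The list summed to 6.59 and 6.625 CPM in the early and 84.9 and 49.4 CPM in the late libraries. In the fibroblasts it summed to 92.5 and 52.4 CPM, so the fibroblast and late sums overlapped.

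Simple epithelial genes had 23 of 26 tested members higher and 1 lower, with DESeq2 calling 16 higher and 0 lower. A further 4 listed genes were not tested. Cldn4, Cldn6 and Elf3 had 0 counts in all early and fibroblast libraries and could not have been lower. Krt8, the keratin that pairs with Krt18, was at 0.490 and 0.663 CPM in the early and 156 and 46.3 CPM in the late libraries. Krt18 was at 1.38 and 1.37 CPM and then 85.7 and 27.2 CPM. Cdh1, the epithelial cadherin, was at 0.490 and 0.189 CPM and then 20.1 and 6.599 CPM, so both late values were above both early ones. Krt19 overlapped, at 444 and 105 CPM in the early and 202 and 225 CPM in the late libraries. The epidermal keratins were near the floor throughout, with Krt14 at 0 and 1 counts in the early and 11 and 11 in the late libraries, and Krt5 at 2 and 2 counts and then 1 and 6. Visceral endoderm and fetal liver genes, also chosen after their values were seen, were higher for 5 of 11 and lower for 1. Afp and Ttr, secreted proteins of yolk sac endoderm and fetal liver, were at 13.6 and 4.35 CPM and at 3.79 and 0.786 CPM in the late libraries, with 2 and 0 counts over both early libraries. The lower member, Apob, was at 4.50 and 7.43 CPM in the early and 3.38 and 1.74 CPM in the late libraries. Foxa1, Foxa2, Gata6, Dab2 and Trf overlapped, so the list as a whole did not move with Afp and Ttr.

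The ratio between the late libraries was compared over the members of these groups, counting genes higher in both late libraries with at least 20 counts over the late pair. The CPM of late replicate 1 was a median of 3.16 times that of late replicate 2 over 19 placental and trophoblast genes, with quartiles of 2.93 and 3.39. The median ratio was 2.90 over 13 early embryo genes, 2.86 over 17 imprinted members and 2.65 over 23 simple epithelial genes. Their quartiles were wider, at 2.23 and 3.82, 2.10 and 3.16, and 1.64 and 3.12, and the lowest ratios were 0.231, 0.172 and 0.0672. The median was 1.02 over 12 further imprinted genes, of which 5 lay between 2 and 4, and 1.94 over 5 visceral endoderm genes, of which 1 did. The lists share members, with Krt7, Krt8, Krt18 and Elf3 on both the placental and the epithelial list and Peg10 and Phlda2 on both the placental and the imprinted list. Over all 15804 tested genes with that many counts the median was 1.03, and 6.49% lay between 2 and 4, against 17 of the 19 placental genes. All 19 had a gap of at least 1, and among all higher genes with such a gap 20.3% lay in that band. Among higher genes with a gap of at least 3, 39.0% did. The placental list was chosen after its values were seen, and the band from 2 to 4 was not fixed beforehand. These shares are therefore descriptions. Of the 213 genes with a gap of at least 3, 125 were higher in late replicate 1, and 83 of those had a ratio between 2 and 4. Of these 125, 23 were on the X chromosome, or 18.4%, against 3.57% of all tested genes. The other 88 were higher in late replicate 2. Xist differed between the late libraries as given above, and the part of this in the X-linked genes was not tested.

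**Figure D3:**
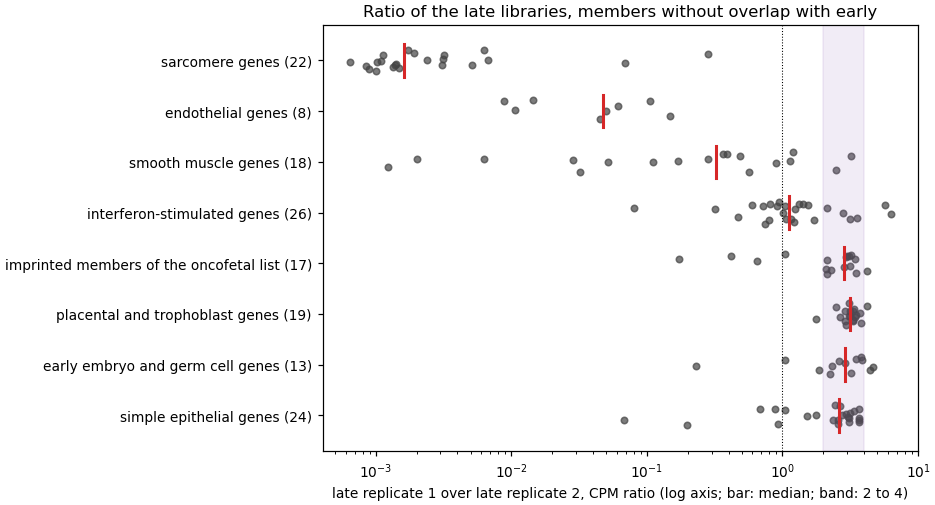
CPM in late replicate 1 over CPM in late replicate 2 on a log axis for list members without overlap between late and early and with at least 20 counts over the late pair, each point a gene and each bar the list's median. Placental genes gather near 3.16 inside the shaded band from 2 to 4, and sarcomere genes lie near a ratio of 0.00161.

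Heart transcription factors were higher in the late libraries for 14 of 31 tested members and lower for 4. DESeq2 called 7 higher and 0 lower. Gata4 was at 19.8 and 17.8 CPM in the early and 44.2 and 113 CPM in the late libraries, with 0.168 and 0.324 CPM in the fibroblasts. Its log2 difference was 2.06 (SE 0.52, edgeR adjusted p = 0.377, DESeq2 adjusted p = 0.0124). Tbx20, which is needed for growth of the heart tube, was at 43.9 and 6.20 CPM and then 89.9 and 114 CPM. Hand1, a factor of heart and trophoblast, was at 0.0891 and 0.142 CPM and then 22.3 and 5.84 CPM. Irx3, a homeobox factor of the conduction system, was at 3.30 and 1.94 CPM and then 16.3 and 26.8 CPM. Gata4, Tbx20 and Irx3 were highest in late replicate 2, and Hand1 in late replicate 1. Myocd, the coactivator of SRF in heart and smooth muscle, was at 0.0891 and 0.142 CPM and then 1.83 and 49.4 CPM.

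Most of the core factors named above overlapped between late and early cells or differed by a narrow gap. Nkx2-5 was at 6.46 and 1.75 CPM in the early and 6.50 and 71.9 CPM in the late libraries, so late replicate 1 was above early replicate 1 by a narrow margin. Gata6 overlapped, at 66.1 and 165 CPM and then 80.8 and 92.7 CPM. Tbx5 overlapped, at 11.9 and 3.55 CPM and then 8.003 and 41.4 CPM, and so did Mef2c, at 8.11 and 23.3 CPM and then 12.4 and 45.0 CPM. Hand2 overlapped as well, at 17.95 and 128 CPM and then 45.0 and 52.4 CPM, with the early libraries far apart. Isl1, a factor of second heart field progenitors, was lower in both late libraries, at 16.4 and 9.70 CPM and then 6.34 and 0.758 CPM, a log2 difference of -1.89 (SE 1.06, edgeR adjusted p = 0.595, DESeq2 adjusted p = 0.451).

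Progenitor and early mesoderm markers were higher for 12 of 23 tested members and lower for 1, and 4 further listed genes were not tested. The lower member was Osr1, a factor of intermediate and lateral mesoderm, at 132.7 and 141 CPM in the early and 118 and 63.3 CPM in the late libraries. DESeq2 called 7 higher and 0 lower. Tcf21, a factor of epicardial progenitors, had 0 counts in all fibroblast and early libraries and 4.002 and 9.60 CPM in the late libraries, at least 107-fold higher. DESeq2 gave it an adjusted p of 0.314. Hcn4, the pacemaker channel that also marks the first heart field, had 1 early count and 724 late ones, a ratio of 529 with an exact interval of 94.7 to 20900. Kdr, the VEGF receptor of vascular progenitors, was at 0.757 and 0.237 CPM and then 10.4 and 170 CPM. Without late replicate 2 the list gave 15 higher and 4 lower.

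Sarcomere genes were higher for 22 of 32 tested members and lower for 0, with by far the largest summed level in late replicate 2. Myh6, the alpha heavy chain of heart myosin, was at 5.84 and 5.92 CPM in the early and 25.8 and 25360 CPM in the late libraries. Actc1, heart actin, was at 2.27 and 1.89 CPM and then 16.2 and 6843 CPM. Tnnt2, heart troponin T, overlapped, at 2.67 and 35.9 CPM and then 15.1 and 5866 CPM. On the log2 CPM scale the list's median difference from the early mean was 1.13 for late replicate 1, against 10.01 for late replicate 2. Its summed level was 1151 and 671 CPM in the early libraries and 1177 and 71560 CPM in the late libraries. The median ratio of late replicate 1 to late replicate 2 among the 22 higher members was 0.00161. DESeq2 called 24 members higher, and the edgeR adjusted p of Myh6 was 0.425. Nebl, a protein of the Z-disc, had the widest gap of the list, at 0.846 and 0.237 CPM and then 13.1 and 190 CPM.

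Several other genes of working heart muscle had the same shape. Cardiac calcium and channel genes were higher for 12 of 25 members and lower for 0, and chamber hormone and stress genes for 12 of 19 and 0. Ryr2, the calcium release channel, was at 0.802 and 0.521 CPM and then 5.84 and 1212 CPM. Popdc2, a membrane protein that binds cyclic AMP, was at 0.490 and 0.521 CPM and then 5.42 and 359 CPM. Fabp3, the fatty acid carrier of heart muscle, was at 0.891 and 1.75 CPM and then 10.9 and 1218 CPM, and Lpl, the lipase that frees fatty acids from lipoproteins, at 0.579 and 3.17 CPM and then 14.7 and 1579 CPM. Fatty acid oxidation genes were higher for 10 of 32 members (31.25%) and lower for 2. Respiratory chain genes were higher for 4 of 38 (10.5%), under the 16.1% of all tested genes, and lower for 0. Cox6a2, the muscle form of a cytochrome oxidase subunit, had 3 early counts and was at 0.459 and 602 CPM in the late libraries, a ratio of 5230 with an exact interval of 1790 to 25300 that rests on late replicate 2. The median difference of the respiratory chain list from the early mean was -0.03 for late replicate 1, against 2.22 for late replicate 2, so the late libraries did not share it. Without late replicate 1, 37 of the 38 respiratory chain genes were above both early libraries, and without late replicate 2, 4 were.

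**Figure D4:**
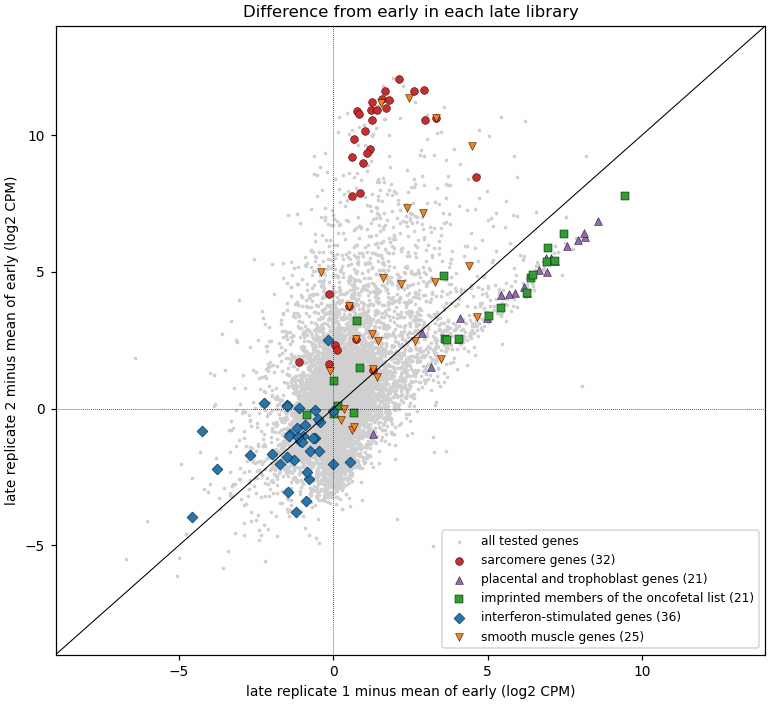
Difference from the early mean in late replicate 1 (horizontal) and late replicate 2 (vertical), in log2 CPM, for all tested genes and 5 lists, with the diagonal of equal differences. Most sarcomere genes lie high above the diagonal, most placental and imprinted genes lie along a band below it, and interferon-stimulated genes lie mostly below 0 on both axes.

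Markers of other cell types were compared in the same libraries. The heart muscle cell markers had 10 of 12 members higher, summed to 18.1 and 54.7 CPM in the early and 86.5 and 55800 CPM in the late libraries. The macrophage marker Tyrobp had 1 and 0 counts in the early libraries, 0 in late replicate 1 and 133 in late replicate 2, and 6 of 18 macrophage and leukocyte markers were higher, summed to 119 and 54.7 CPM and then 74.6 and 334 CPM. Red blood cell markers summed to 0.668 and 0.663 CPM and then 1.58 and 1045 CPM, with 1 of 2 tested members higher. Fat cell markers summed to 13.1 and 33.1 CPM and then 15.3 and 539 CPM, with 2 of 4 higher, and Adipoq, a hormone of fat cells, had 0, 0, 1 and 322 counts. Within the 4 compared libraries each of these sums was highest in late replicate 2, and the macrophage and leukocyte markers summed to 359 and 1485 CPM in the fibroblasts. The defining skeletal muscle genes Myod1 and Myog had 0 counts in all 6 libraries, while 3 of 5 tested skeletal muscle markers were higher and 1 lower, summed to 44.6 and 35.4 CPM and then 31.1 and 1504 CPM. Fibroblast markers were higher for 0 and lower for 3 of 10 members, summed to 3593 and 13070 CPM and then 3316 and 3761 CPM. Pericyte markers were higher for 2 of 7, keratinocyte markers for 3 of 7 and Schwann and neural markers for 2 of 5. The part of these cell types in the other results was not tested, and in bulk RNA fewer cells of a type and less RNA per cell cannot be told apart.

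Smooth muscle genes were higher for 18 of 25 tested members and lower for 0, with a median difference from the early mean of 1.55 for late replicate 1 and 3.35 for late replicate 2, on the log2 scale. Their summed level was 1926 and 1852 CPM in the early and 3330 and 14050 CPM in the late libraries. The fibroblast libraries summed to 5660 and 11510 CPM, so late replicate 1 was below both. Acta2, smooth muscle actin and named here after its values were seen, was at 110 and 150 CPM in the early and 814 and 717 CPM in the late libraries, a log2 difference of 2.56 (SE 0.74, edgeR adjusted p = 0.405, DESeq2 adjusted p = 0.0134). Itga8, an integrin of smooth muscle, was at 0.312 and 0.615 CPM and then 10.7 and 18.8 CPM, with 55.6 and 106 CPM in the fibroblasts. Ppp1r14a, an inhibitor of myosin phosphatase, was at 0.223 and 0.426 CPM and then 3.67 and 9.35 CPM, with 4.0 and 7.68 CPM in the fibroblasts. Pcp4l1, a relative of the calmodulin regulator Pcp4, was at 0.223 and 0.0947 CPM and then 4.92 and 174 CPM, with 71.2 and 86.0 CPM in the fibroblasts. Mcam, an adhesion molecule of pericytes and vascular progenitors, was level between the late libraries, at 7.53 and 6.11 CPM in the early and 69.9 and 76.6 CPM in the late ones. In the fibroblasts Mcam was at 2.1 and 1.3 CPM. Its log2 difference was 3.42 (SE 0.33, edgeR adjusted p = 0.254, DESeq2 adjusted p = 5.98e-20). DESeq2 called 13 of the 25 smooth muscle genes, and without late replicate 2 the list gave 21 higher and 1 lower.

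Endothelial genes were higher for 8 of 17 tested members and lower for 0, with the larger value in late replicate 2 for each of the 8. Cdh5, the cadherin of vessel lining, had 1 count in each early library and 209 and 6193 counts in the late libraries, a ratio of 2340 with an exact interval of 648 to 19300. Sox17, a factor of arterial endothelium and endoderm, had 0 early counts and was at 1.67 and 11.2 CPM, at least 107-fold higher. Tek, the angiopoietin receptor, was at 0.0891 and 0.142 CPM and then 2.38 and 53.1 CPM. On the log2 scale the median difference of the list was 0.12 for late replicate 1, against 4.31 for late replicate 2. Epicardial and mesothelial genes were higher for 8 of 20 and lower for 1, and Krt8, Krt18 and Cdh3 on that list are also simple epithelial genes. Wt1, an epicardial factor, overlapped, at 1.29 and 1.37 CPM and then 0.834 and 7.13 CPM.

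The FGF, IGF and VEGF list had 9 of 34 members higher (26.5%) and 7 lower (20.6%), against 16.1% and 17.6% of all tested genes. Its widest gaps were those of Igfbp5 and Igf2. Igfbp5, which binds the growth factor in the matrix, was at 0.223 and 0.237 CPM in the early, 88.1 and 183 CPM in the late and 27.4 and 84.9 CPM in the fibroblast libraries. Its log2 difference was 9.18 (SE 0.91, edgeR adjusted p = 0.254, DESeq2 adjusted p = 1.11e-23). Fgfr3, a fibroblast growth factor receptor, was at 2.004 and 1.14 CPM and then 23.2 and 13.7 CPM. Fgf2, a ligand of that family, was lower, at 92.8 and 70.4 CPM and then 24.0 and 20.2 CPM, a log2 difference of -1.89 (SE 0.27, edgeR adjusted p = 0.289, DESeq2 adjusted p = 1.43e-06). Some other genes of insulin-like growth factor signalling, named here after their values were seen, were lower or overlapped. Igfbp3, another binding protein, was at 373 and 228 CPM in the early and 91.7 and 121 CPM in the late libraries, and the receptor Igf1r was at 210 and 200.3 CPM and then 172 and 122 CPM. Igf1 overlapped, at 0.490 and 18.2 CPM and then 1.501 and 14.4 CPM.

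Notch genes were higher for 9 of 19 tested members and lower for 2. Notch1, a receptor, was at 16.0 and 13.7 CPM in the early and 42.0 and 61.8 CPM in the late libraries. Its log2 difference was 1.81 (SE 0.28, edgeR adjusted p = 0.289, DESeq2 adjusted p = 4.47e-06). Dlk1, an imprinted inhibitory ligand, was at 0.445 and 5.73 CPM and then 75.4 and 21.9 CPM. Heyl, a target factor of the pathway, was at 0.134 and 0.0947 CPM and then 0.625 and 27.3 CPM. Wnt pathway genes were higher for 12 of 40 and lower for 2. Sfrp2, a secreted Wnt antagonist, was at 1.29 and 0.521 CPM in the early and 33.3 and 10.9 CPM in the late libraries. The ligand Wnt2 was at 0.0445 and 0.0947 CPM and then 4.09 and 1.35 CPM, and Wif1, another antagonist, was at 0.935 and 1.04 CPM and then 22.4 and 6.57 CPM. The 3 were higher in late replicate 1 than in late replicate 2.

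TGF-beta and BMP genes were lower for 14 of 39 tested members, or 35.9%, and higher for 6, or 15.4%, against 17.6% and 16.1% of all tested genes. Fst, the secreted protein that binds activin, was at 164 and 205 CPM in the early and 31.9 and 10.6 CPM in the late libraries. Its log2 difference was -3.12 (SE 0.57, edgeR adjusted p = 0.350, DESeq2 adjusted p = 3.91e-05). Gdf15, a stress-induced ligand, was at 10.4 and 7.62 CPM and then 3.34 and 1.99 CPM, so late replicate 2 was the lowest of the 4 compared libraries for both genes. Bmp5, a ligand of the BMP family, had 0 early counts and was at 1.13 and 1.10 CPM in the late libraries, at least 16.1-fold higher. Retinoid genes were higher for 7 of 19 and lower for 2, with the receptor Rarb at 2.09 and 2.18 CPM and then 7.75 and 14.2 CPM.

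Interferon-stimulated genes were lower in both late libraries for 26 of 36 tested members and higher for 0, against 17.6% of all tested genes lower. The list's median log2 difference was -1.14. The list median differed little between the late libraries, with a median difference from the early mean of -1.10 for late replicate 1, against -1.13 for late replicate 2. Single genes differed more. Over the 26 lower members the ratio of late replicate 1 to late replicate 2 ran from 0.0796 to 6.35, with quartiles of 0.802 and 1.66. Without either late library or either early library in turn, 29 to 32 members were lower and at most 2 higher. Fewer libraries had to be cleared there, and over all tested genes the lower count rose from 2938 to between 4780 and 6768. These counts therefore do not test the stability of the list. DESeq2 called 7 lower and 0 higher, and at an unadjusted p under 0.05 edgeR had 9 lower.

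Sensors and effectors of the antiviral response were among the lowest. Oas3, an oligoadenylate synthetase that senses double-stranded RNA, was at 9.76 and 5.87 CPM in the early, 0.2501 and 0.421 CPM in the late and 0.403 and 1.59 CPM in the fibroblast libraries. Its log2 difference was -4.51 (SE 0.92, edgeR adjusted p = 0.361, DESeq2 adjusted p = 5.78e-05). Oas1a, of the same family, was at 11.5 and 8.61 CPM and then 0.667 and 2.11 CPM, with 0.336 and 1.12 CPM in the fibroblasts. Oas3 and Oas1a held matches to the response element in the windows printed above. Ifih1, the sensor MDA5, was at 18.9 and 18.6 CPM in the early, 6.59 and 5.42 CPM in the late and 10.7 and 15.4 CPM in the fibroblast libraries. Rtp4, an interferon-induced chaperone, was at 21.1 and 28.2 CPM and then 7.38 and 5.93 CPM, with 4.67 and 5.65 CPM in the fibroblasts. Irf7, a transcription factor of the pathway, was at 18.97 and 14.9 CPM and then 10.6 and 8.03 CPM, with 5.14 and 5.53 CPM in the fibroblasts. For Rtp4 and Irf7 both late values were above both fibroblast values. Both early values were above both fibroblast values for each gene named in this paragraph, while for Ifit2, also lower in late, they were below.

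**Figure D5:**
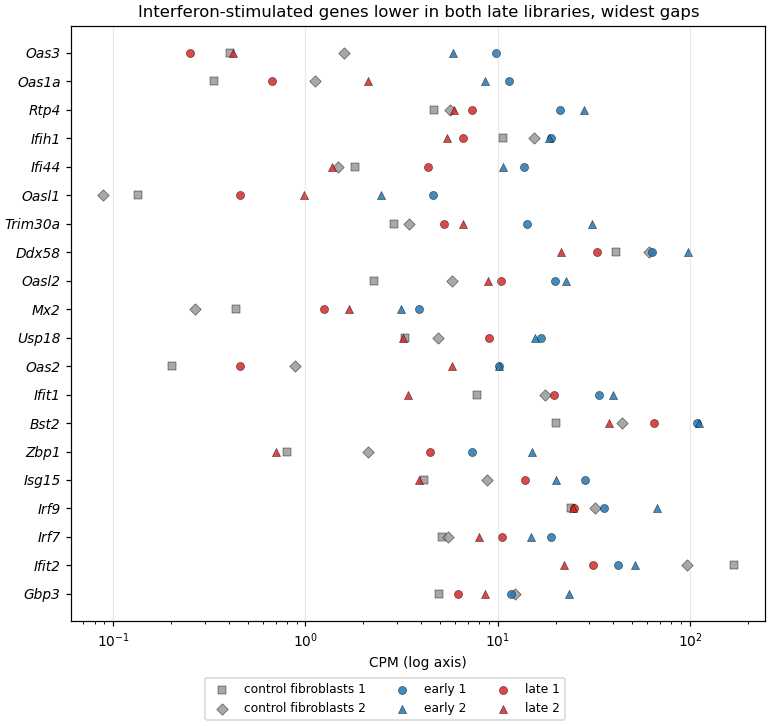
CPM on a log axis in each of the 6 libraries for the 20 interferon-stimulated genes with the widest gap among those with both late libraries below both early libraries, ordered by gap. The gap is widest for Oas3, at 0.2501 and 0.421 CPM in the late against 9.76 and 5.87 CPM in the early libraries.

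Related immune lists had shares of lower members near the 17.6% of all tested genes. MHC class I and antigen presentation genes were lower for 5 of 21 members and higher for 0, with a median log2 difference of -0.05, and none had an unadjusted p under 0.05 in edgeR or a call in DESeq2. Without late replicate 1, 12 of them were above both early libraries, and without late replicate 2, 18 were below, so the late libraries lay on different sides. Chemokine and cytokine genes were lower for 3 of 20 and higher for 2, and acute-phase and complement genes lower for 5 of 20 and higher for 2. Selp, Ripk3 and Ptges, among the 12 lower genes the rule took, were on none of the immune lists. Selp, the adhesion molecule P-selectin, had the widest gap of the 12, at 31.9 and 113 CPM in the early libraries. It was at 5.54 and 1.55 CPM in the late and 0.201 and 0.118 CPM in the fibroblast libraries. Ripk3, a kinase of necroptosis, was at 31.4 and 21.0 CPM and then 6.92 and 4.75 CPM. Ptges, which makes prostaglandin E2, was at 45.6 and 84.0 CPM and then 13 and 3.15 CPM. The late libraries lay below the early ones for each of these genes.

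Further genes with wide downward gaps were not on an immune list either. Atcay, a protein of nerve cell trafficking, was at 71.9 and 34.6 CPM in the early and 5.002 and 6.88 CPM in the late libraries. Tacr1, the receptor of substance P, was at 35.8 and 17.6 CPM and then 6.21 and 4.02 CPM. Rgs16, which shortens G protein signals, was at 20.8 and 19.2 CPM and then 7.003 and 2.02 CPM. Apobr, a receptor for lipoproteins, was at 27.9 and 17.6 CPM and then 6.25 and 3.65 CPM, so late replicate 2 was the lower late library for all of these except Atcay.

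Genes of the aryl hydrocarbon receptor, a sensor of foreign compounds, were a list chosen after the values were seen, with 4 of 8 lower and 0 higher. Its target Cyp1a1, a cytochrome P450, was at 60.9 and 30.5 CPM in the early and 0.334 and 0.871 CPM in the late libraries, a log2 difference of -6.21 (SE 0.79, edgeR adjusted p = 0.254, DESeq2 adjusted p = 5.56e-15). Cyp1b1, of the same family, was at 924 and 1760 CPM and then 665 and 292 CPM. Ahrr, the repressor of the receptor, was at 5.97 and 5.77 CPM and then 1.71 and 1.80 CPM. The receptor Ahr was at 111 and 286 CPM and then 98.6 and 61.3 CPM. Ahr was lower in both late libraries but by a narrow gap in late replicate 1. Arnt, Tiparp, Nqo1 and Aldh3a1 on the list overlapped. Aldh3a1 was at 458.5 and 67.44 CPM in the early and 282.4 and 289.9 CPM in the late libraries. Tiparp was at 46.06 and 37.29 CPM and then 55.6 and 32.01 CPM, and Nqo1 at 36.35 and 14.67 CPM and then 13.05 and 19.85 CPM. The list as a whole did not move with Cyp1a1.

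Fibroblast and matrix genes were lower for 12 of 40 tested members and higher for 0. Col8a1, a short-chain collagen, was at 38.8 and 464 CPM in the early and 13.7 and 14.7 CPM in the late libraries, and Thbs2, a matricellular protein, was at 35.2 and 140 CPM and then 12.6 and 18.2 CPM. Fap, a surface protease of activated fibroblasts, was at 6.99 and 6.20 CPM and then 0.667 and 2.53 CPM. The summed level was 16460 and 37190 CPM in the early and 15480 and 13320 CPM in the late libraries. Without early replicate 1, 32 members were lower, and without early replicate 2, 14 were lower and 14 higher. Matrix remodelling enzymes were lower for 8 of 21 and higher for 2. Mmp3, a metalloproteinase, was at 782 and 5011 CPM and then 356 and 407 CPM, and Mmp9, a gelatinase, was at 0.134 and 0.189 CPM and then 3.96 and 1.63 CPM.

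Cell cycle and DNA replication genes overlapped between late and early cells. Of 48 members, 1 was lower and 0 were higher, and that member, E2f1, the factor that opens S phase, was at 56.8 and 60.6 CPM and then 44.2 and 32.01 CPM. Mki67, a marker of dividing cells named here after its values were seen, was at 432 and 61.6 CPM in the early and 180 and 203 CPM in the late libraries. The late values lay between the early ones, and this held for most of the list. Without early replicate 1, 45 of the 48 genes were above, and without early replicate 2, 46 were below. Of p53 targets and cell cycle inhibitors, 2 of 24 were higher (8.33%) and 3 lower (12.5%), both under the shares of all tested genes. Cdkn2a, the inhibitor of the senescence locus, was at 44.4 and 104 CPM and then 29.4 and 10.9 CPM.

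Hox genes set position along the body axis. Of 35 tested members, 7 (20%) were higher and 9 (25.7%) lower, against 16.1% and 17.6% of all tested genes. The lower members were 8 genes of the HoxB cluster and Hoxa3, and late replicate 2 was the lowest of the 4 compared libraries for each. Hoxb6 was at 33.5 and 19.3 CPM in the early and 7.04 and 0.927 CPM in the late libraries. The gene with the widest upward gap was Hoxa13, a posterior gene, at 0.490 and 0.331 CPM in the early, 10.1 and 3.01 CPM in the late and 31.2 and 30.9 CPM in the fibroblast libraries. Counts of genes in Hox clusters are uncertain, because antisense transcripts overlap them and the strand setting of the counting is not given in the sources used here.

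Chromatin regulators were higher for 8 of 30 and lower for 2, with the DNA methyltransferase Dnmt3b at 1.20 and 1.42 CPM and then 7.55 and 4.07 CPM, and Smarcd3, a heart subunit of the BAF remodelling complex, at 27.4 and 36.0 CPM and then 59.3 and 64.2 CPM. Both late values exceeded both early values for each gene. AP-1 and immediate early genes were higher for 4 of 24 (16.7%) and lower for 3 (12.5%), against 16.1% and 17.6% of all tested genes. Junb, a subunit of AP-1, was at 216 and 195 CPM and then 108 and 119 CPM. Glycolysis genes were higher for 4 of 24 and lower for 4, or 16.7% each, which is near the shares of all tested genes. Slc16a3, a lactate exporter, was at 18.7 and 17.0 CPM in the early and 7.80 and 6.52 CPM in the late libraries.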

How the data were processed

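The deposited table held whole-number read counts per gene for 6 libraries, made by the authors with Trimmomatic 0.36, STAR 2.5.2b and featureCounts of Subread 1.5.2 on GRCm38, per the submitters' processing notes. The strand setting, the treatment of reads that match several genes and the annotation release are not stated in the sources at hand. Columns were given to groups by their names, a reading that would swap early and late if it were wrong, and no column was left unused. Symbols and positions came from GENCODE M21 on GRCm38, which named 48970 of the 49315 identifiers.

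Counts were filtered with filterByExpr, scaled by TMM and fitted over all 3 groups with edgeR 4.0.16 (quasi-likelihood, robust, R 4.3.3), with Benjamini-Hochberg adjustment over 16688 genes, a threshold of 0.05 and 3 residual degrees of freedom. The fibroblast libraries entered the fit for the spread. Gaps between libraries used log2 CPM (prior count 2). DESeq2 1.42.0, other scaling, no filter, the compared libraries alone, a replicate block, no robust estimation and each library left out were the alternatives. The script was tested on simulated data. Intervals and the floor of 3 counts cover counting error only.

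Genes named are the 12 widest gaps in each direction at a mean log2 CPM of at least 3, up to 4 members of each list, fixed heart genes and defining markers. The members, the 28 lists and the 11 marker lists were chosen with earlier results of these data known. A further 7 lists were chosen after their values were seen, and 3 listed symbols were not matched. Reads of paralogs and overlapping genes may be split or shared. Promoter sequences are RefSeq's on GRCm38.p6. The values of 1 listed gene are not reported here.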

Additional observations from a re-analysis of the deposited data

How the results depend on the processing

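No gene was called by edgeR with the main settings, with DESeq2's size factors, without robust estimation or on the 4 compared libraries alone. DESeq2 called 930 genes, and edgeR without a filter on low counts called 276. Leaving out each library in turn gave 0 to 401 calls, with 401 only without late replicate 1, where the lone late library is assumed to vary like the other groups. The cause was not tested. Genes above both early libraries numbered 2686, against 4937 with no filter and 873 with a gap of at least 1, and 4475 to 6020 when an early or late library was left out. Genes below numbered 2938, against 132 with a gap of at least 1, and 4780 to 6768 when such a library was left out, since fewer libraries must then be cleared. Replicate numbers are shared between groups, but the correlation of replicate differences was 0.121 between fibroblast and early, 0.238 between fibroblast and late and 0.0859 between early and late, so not every value was over 0.1. The numbers were not taken to pair the libraries, and a fit with the replicate block called 0 genes. The fitted log2 difference changed sign for the named genes below when 1 library was left out, with the lowest and highest values over such fits in brackets. Leaving out early replicate 2 turned Gata6 (-0.94 to 0.33), Hand2 (-1.41 to 1.38) and Pdgfra (-2.67 to 1.08). Leaving out late replicate 2 turned Mef2c (-0.34 to 1.74), Tnnt2 (-0.35 to 9.995), Csf1r (-0.39 to 4.01), Cspg4 (-1.43 to 2.49), Tyrobp (-2.54 to 8.73) and Rgs5 (-1.01 to 0.78), and Rgs5 also turned without early replicate 1 (-0.30). At these depths a level under 0.0843 to 0.142 CPM, or 3 counts, was below the floor.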
